A study of Mus musculus with 6 samples.

Results

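Receptor tyrosine kinases are cell-surface receptors that bind a protein ligand outside the cell and phosphorylate tyrosines inside it. Described here are 9 of them that are studied in neuroblastoma, a tumour of the developing sympathetic nervous system: Alk, Ret, Ntrk2, Ntrk3, Pdgfra, Pdgfrb, Kdr, Met and Axl. They were taken by gene symbol from a table of 43629 mouse genes, in which each symbol matched 1 gene. Of these receptors, 5 (Axl, Pdgfrb, Met, Pdgfra and Kdr) had enough counts to be tested, and 4 (Alk, Ret, Ntrk2 and Ntrk3) did not.

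The libraries came from M1, which the labels call a neuroblastoma cell line and which is of mouse origin. Both groups took doxycycline at 4 to 6 µg/ml for 6 days to switch on a short hairpin RNA, grew in the same serum-containing medium, and gave poly-A RNA. The control group (shNT, genotype WT in the labels) carried a non-targeting hairpin and the other group (shIGF2BP1, genotype IGF2BP1 knockdown) a hairpin against Igf2bp1, with 3 libraries in each. The labels name 1 hairpin against Igf2bp1, no strain or age, and no separate cultures behind the replicates, so p-values measure the spread between these libraries, which may be technical.

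Receptors of this family signal through shared routes. A bound ligand pairs the receptors, the paired kinases phosphorylate each other, and adaptors such as Grb2 and Shc1 couple them to the Ras-ERK, PI3 kinase and phospholipase C routes. Alk is the receptor most often mutated in neuroblastoma, Ret and the Trk receptors Ntrk2 and Ntrk3 serve sympathetic and sensory neurons, and Axl, Met and the PDGF receptors are common in mesenchymal cells. Kdr is the main receptor of vascular endothelial growth factor and is best known in endothelial cells.

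Library totals ran from 25119655 to 35373076 counts. The targeted transcript did not mark the groups: Igf2bp1 had 1.25, 5.14 and 6.08 CPM (counts scaled to library size with TMM factors) in the shNT libraries and 2.56, 0.993 and 11.3 CPM in those labelled shIGF2BP1, so that shIGF2BP1 over shNT was 0.25 ± 0.79 (SE) on the log2 scale (edgeR adjusted p = 0.966). Directions below therefore compare the libraries labelled shIGF2BP1 with the shNT libraries and do not follow a measured loss of Igf2bp1. Of 11 sympathetic neuroblast markers, Hand2 (257 to 479.8 CPM), Mycn, Isl1 and Gata3 were well covered, while Th, Dbh and Chga had 0 counts in all 6 libraries and Phox2a and Stmn2 had 1 count each. The catecholamine enzymes that define that lineage were thus not detected. All 10 mesenchymal neuroblastoma markers were at 5 CPM or more, led by Vim and Fn1.

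Axl dominated the receptor mRNA of this line. Axl, a receptor of the TAM family that binds Gas6, had 575.3, 779 and 1015 CPM in the shNT libraries. In the libraries labelled shIGF2BP1 it had 507, 537 and 832 CPM. Divided by exon length, the level was 157 ± 43.7 RPKM (CPM per kilobase of merged exons) in shNT and 124 ± 35.6 RPKM in shIGF2BP1 (SD, n = 3 each). That was the highest per-length level of 54 receptor tyrosine kinases and rank 283 of 13353 tested genes with an annotated length. Axl made up 85.8% to 88.4% of the summed RPKM of the 9 receptors and 35.7% to 45.7% of that of all 54, so most receptor tyrosine kinase transcripts of the 9 came from 1 gene in every library.

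The next receptors lay far below Axl. Pdgfrb, the receptor for PDGF-B and PDGF-D, had 14.1 ± 8.14 RPKM in shNT and 7.72 ± 2.78 RPKM in shIGF2BP1 (SD, n = 3 each), and Axl exceeded it 8.79- to 18.6-fold in every library. Met, the receptor of hepatocyte growth factor, had 6.92 ± 0.741 and 7.75 ± 1.49 RPKM. Pdgfrb and Met did not differ beyond their spread, with a Pdgfrb to Met ratio of RPKM from 0.731 to 3.27 and Pdgfrb higher in 5 of 6 libraries. Pdgfra, the receptor for PDGF-A and PDGF-C, had 2.12 ± 0.791 and 1.32 ± 0.0588 RPKM and lay 2.44- to 7.16-fold below Met in all 6 libraries. Kdr was lowest of the detected receptors, at 0.668 ± 0.422 and 0.171 ± 0.0937 RPKM, between 2.01- and 14.7-fold below Pdgfra in all 6 libraries. In the per-length order of the 54 receptors Axl stood at place 1, Pdgfrb at 8, Met at 10, Pdgfra at 18 and Kdr at 21.

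**Figure D1:**
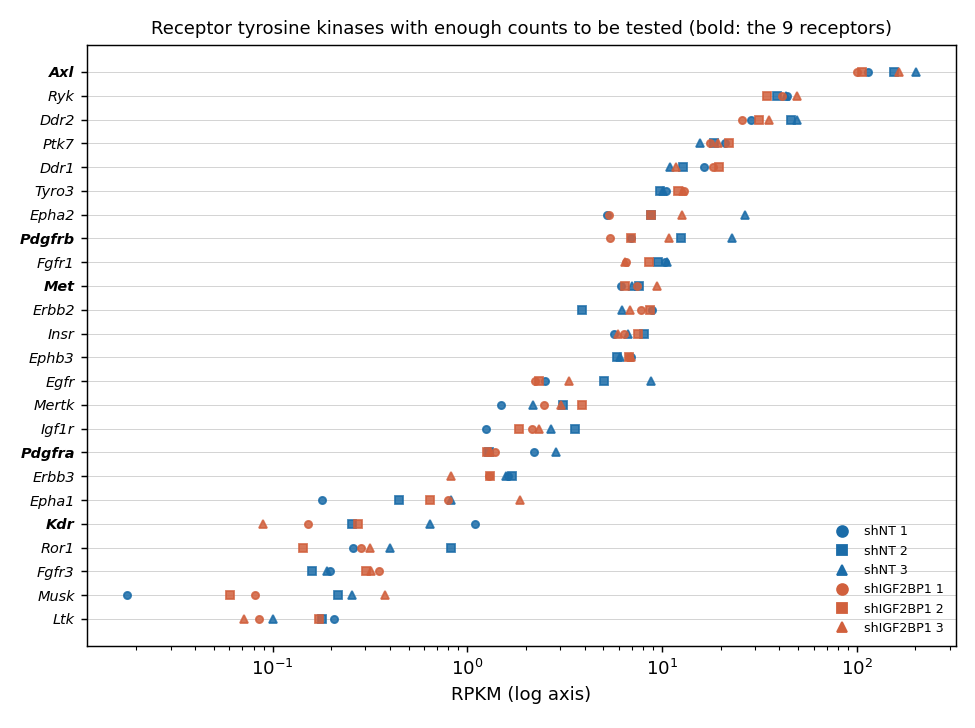
RPKM on a log axis for receptor tyrosine kinases that could be tested, 1 point per library, blue for shNT and orange for shIGF2BP1, with the receptors described here in bold. The 6 Axl points lie between 101 and 202 RPKM, above every point of the other receptors shown.

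The 4 neuronal receptors were at or near 0. Alk, the receptor of the Alkal ligands, had 5 counts in all, 2 in shNT replicate 3, 1 in shIGF2BP1 replicate 1 and 2 in shIGF2BP1 replicate 3. Ret, the signalling receptor of the GDNF family, Ntrk2, the receptor of Bdnf, and Ntrk3, the receptor of neurotrophin 3, had 0 counts in each of the 6 libraries. A count of 0 allows up to 3 counts, or 0.0851 to 0.114 CPM depending on the library. Per length that limit was 0.0126 to 0.0169 RPKM for Ret, 0.00441 to 0.00593 RPKM for Ntrk2 and 0.00282 to 0.00379 RPKM for Ntrk3, for counting error only. No fold change is given for these 4 genes, since both groups lay at or under the floor.

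**Figure D2:**
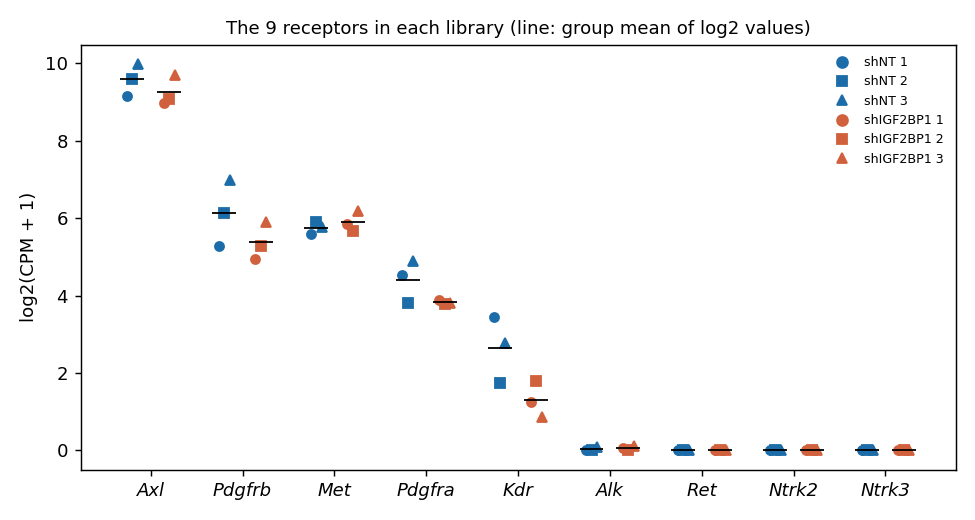
Level of each of the 9 receptors on a log2(CPM + 1) scale, 1 point per library with its replicate as the symbol, and a line at each group's mean. Axl stands above all others, Alk, Ret, Ntrk2 and Ntrk3 lie at the bottom, and the points of the 2 groups overlap for each receptor.

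On GRCm38, a pair of the detected receptors were close neighbours. Pdgfra (ENSMUSG00000029231, plus strand, chromosome 5, 75152292 to 75198215) and Kdr (ENSMUSG00000062960, minus strand, chromosome 5, 75932827 to 75978458) flank Kit (75574916 to 75656722), another receptor tyrosine kinase gene, which had 1 count in all. Axl (ENSMUSG00000002602) spans 25757273 to 25788705 on chromosome 7, minus strand, and Met (ENSMUSG00000009376) spans 17463800 to 17573980 on chromosome 6, plus strand. Alk (ENSMUSG00000055471) lies on chromosome 17 from 71868972 to 72604627, Ret (ENSMUSG00000030110) on chromosome 6 from 118151745 to 118197718, Ntrk2 (ENSMUSG00000055254) on chromosome 13 from 58806569 to 59133970 and Ntrk3 (ENSMUSG00000059146) on chromosome 7 from 78175959 to 78738012. Only Pdgfra had exons that overlap another annotated gene (Gm42802, Gm42803 and Mir7025), and of these the deposited table lists Mir7025, with 0 counts.

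Promoter windows of 4 detected receptors held from 5 to 34 CG pairs, and those of Alk and Ntrk2 held 28 and 23. RefSeq start sites on GRCm38.p6 gave a window of 300 bases (250 before and 50 after the start) for 6 of the 9 (Axl, Met, Pdgfra, Kdr, Alk and Ntrk2), those of Ret, Ntrk3 and Pdgfrb were not used here, and 4 are printed to set the highest receptor and a second detected one against a pair at or near 0. They are Axl (chr7:25788684-25788983, minus strand), Pdgfra (chr5:75152001-75152300, plus strand), Alk (chr17:72604258-72604557, minus strand) and Ntrk2 (chr13:58806319-58806618, plus strand), each written 5′ to 3′ on its gene's strand with every CG pair in capitals.
Axl: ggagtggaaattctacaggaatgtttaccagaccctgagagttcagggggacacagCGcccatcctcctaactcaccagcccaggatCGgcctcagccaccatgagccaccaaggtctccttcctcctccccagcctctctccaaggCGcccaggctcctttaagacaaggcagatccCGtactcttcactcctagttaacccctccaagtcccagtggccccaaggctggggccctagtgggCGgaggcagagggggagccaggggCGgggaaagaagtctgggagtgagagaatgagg
Pdgfra: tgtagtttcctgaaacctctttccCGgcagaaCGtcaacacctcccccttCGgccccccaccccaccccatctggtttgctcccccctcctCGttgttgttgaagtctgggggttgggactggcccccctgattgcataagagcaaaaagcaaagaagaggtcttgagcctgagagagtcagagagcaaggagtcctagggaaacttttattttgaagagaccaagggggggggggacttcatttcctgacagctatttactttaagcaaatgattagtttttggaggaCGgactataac
Alk: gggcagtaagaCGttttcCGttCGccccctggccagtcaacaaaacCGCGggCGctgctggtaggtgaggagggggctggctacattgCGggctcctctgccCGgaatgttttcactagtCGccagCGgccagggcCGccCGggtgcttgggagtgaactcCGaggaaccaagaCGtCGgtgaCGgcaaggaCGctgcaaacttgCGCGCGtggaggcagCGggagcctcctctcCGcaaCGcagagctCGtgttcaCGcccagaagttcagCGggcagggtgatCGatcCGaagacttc
Ntrk2: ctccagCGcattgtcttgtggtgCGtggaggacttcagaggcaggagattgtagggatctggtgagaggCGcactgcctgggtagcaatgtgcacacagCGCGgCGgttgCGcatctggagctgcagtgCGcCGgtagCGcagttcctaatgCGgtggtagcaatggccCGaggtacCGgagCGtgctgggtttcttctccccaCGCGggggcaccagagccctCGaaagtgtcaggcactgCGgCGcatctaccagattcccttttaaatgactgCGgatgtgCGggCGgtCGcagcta

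The Axl window held 6 CG pairs and the Pdgfra window 5, against 28 for Alk and 23 for Ntrk2, and the unprinted windows of Met and Kdr held 34 and 19. Over 32851 RefSeq windows of the same length the median was 7 CG pairs, and it was 20 over windows of genes tested here and 4 over windows of genes not tested. The share of all windows with 6 or fewer pairs was 47.9%, and 26.5% had 20 or more. Axl and Pdgfra thus lay a little under the median of all windows, and Alk, Ntrk2 and the detected Met and Kdr above it. On both strands together, the letters GGGCGG occurred 2 times in the Axl window, 1 time each in Alk and Ntrk2 and 0 times in Pdgfra, and 35.7% of all windows held them. TATAAA occurred in none of the 6 windows and in 13.6% of all. These are counts of letters, not of bound sites.

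None of the 5 tested receptors passed the test between the groups. edgeR called 0 of 5 at an adjusted p under 0.05, where it called 0.0223% of the 13445 genes tested. limma-voom called 0 of 5. DESeq2 called 1, Kdr (adjusted p = 0.0283), where it called 0.654% of 15295 genes. The groups overlapped for all 5 receptors, while 11.6% of all tested genes had groups that did not overlap. At an unadjusted edgeR p under 0.05 there were 3 receptors, Kdr, Pdgfra and Pdgfrb, all with lower mean levels in shIGF2BP1. Of all tested genes, 7.16% had such a p and 3.99% had it with a lower mean. The log2 fold changes were negative for 4 of the 5 and had a median of -0.69, beside -0.01 over all genes tested. The median was -0.33 without shNT replicate 3, and all 5 values were negative without shIGF2BP1 replicate 3, Met only just. In bulk RNA, fewer cells that carry a receptor and less of its RNA per cell cannot be told apart.

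**Figure D3:**
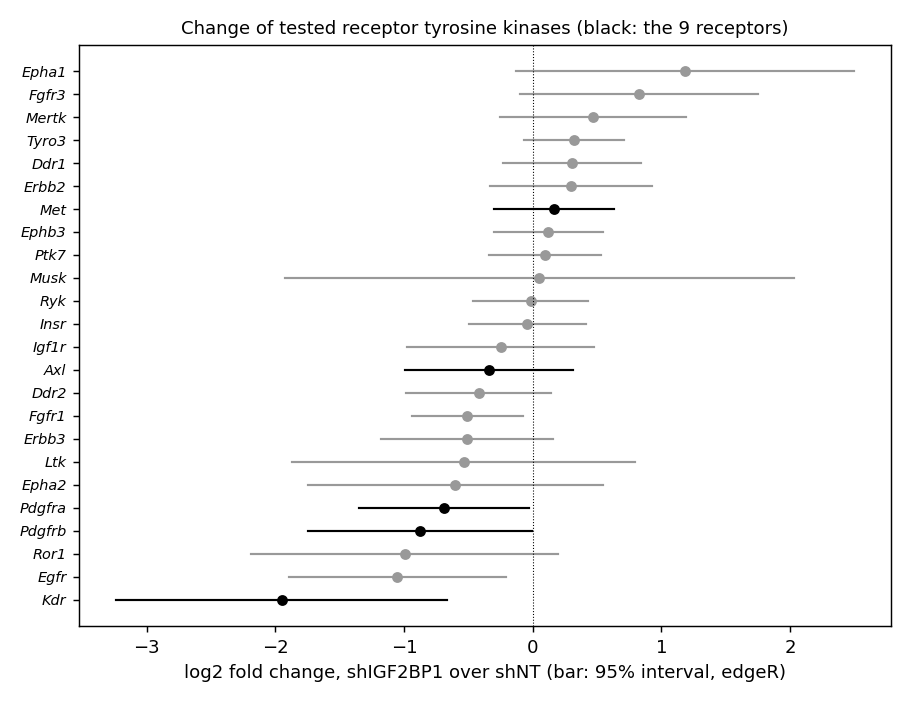
Log2 fold change of shIGF2BP1 over shNT for tested receptor tyrosine kinases, each with its 95% interval from edgeR. The receptors described here are in black, with Kdr lowest at -1.95 and Met at 0.16, and no gene shown passed an adjusted p of 0.05.

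Kdr had the largest difference of the 5. It had 9.94, 2.32 and 5.84 CPM in shNT (295, 79 and 193 counts) and 1.37, 2.47 and 0.802 CPM in shIGF2BP1 (36, 87 and 22 counts). The groups overlapped because shNT replicate 2 lay just under shIGF2BP1 replicate 2. The log2 fold change was -1.95 ± 0.58 (SE; 95% interval -3.24 to -0.66), with an unadjusted edgeR p of 0.00669, place 167 among all genes tested, and an adjusted p of 0.524. An edgeR fit without a filter on low counts called it (adjusted p = 0.015), where that fit called 0.654% of 21088 genes. Without shNT replicate 1, its highest library, the log2 fold change was -1.40 with an edgeR adjusted p of 0.351.

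Most endothelial markers were at or near 0 beside Kdr. Of 11 endothelial markers, Emcn, Cldn5 and Erg had 0 counts in all libraries, Cdh5 had 2 counts in shNT replicate 2 only, and Tie1 had 1. Flt1 and Flt4, the other VEGF receptors, had 28 and 18 counts in all 6 libraries together. Pecam1 and Egfl7 were the best covered, Pecam1 at 37.4 ± 9.5 and 52 ± 22.3 CPM and Egfl7 at 42 ± 8.74 and 40.2 ± 3.85 CPM (SD, n = 3 each). Plvap had 5.87 CPM in shNT replicate 3 and 0.458 to 0.977 CPM in the other 5 libraries. The 11 markers summed to 70.6 to 94 CPM in shNT and 65.5 to 115 CPM in shIGF2BP1, so the groups overlapped, but Pecam1 and Egfl7 carried most of that sum. Of the 4 tested, 3 had a lower mean in shIGF2BP1, as Kdr did (2 of 4 when scaled by library size only), with a median log2 fold change of -0.24. The count was also 2 of 4 without shNT replicate 1, without shIGF2BP1 replicate 2 and without shIGF2BP1 replicate 3. The median ran from -0.60 without shIGF2BP1 replicate 1 to -0.04 without shIGF2BP1 replicate 3. edgeR, DESeq2 and limma-voom called 0 of the 4 markers, and 1 (Plvap) had an unadjusted edgeR p under 0.05, beside 7.16% of all tested genes. The part of endothelial markers in the Kdr values was not tested.

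Vegfa, the main ligand of Kdr, was among the more abundant ligand mRNAs. It had 256, 197 and 312 CPM in shNT and 107, 271 and 123 CPM in shIGF2BP1, with low values in shIGF2BP1 replicates 1 and 3 and a value within the shNT range in replicate 2. The log2 fold change was -0.61 ± 0.34 (SE; edgeR adjusted p = 0.775), and ran from -1.13 without shIGF2BP1 replicate 2 to -0.37 without shIGF2BP1 replicate 1. Vegfd, in the mouse a ligand of the VEGF receptor Flt4, had 5.51 ± 2.45 and 6.53 ± 0.291 CPM, and Vegfc had 0 counts. The co-receptors Nrp2 (56.9 ± 21.4 and 56.8 ± 11.6 CPM) and Nrp1 (11.3 ± 4.61 and 10.7 ± 7.55 CPM) had nearly equal group means.

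The PDGF receptors were both lower on average in shIGF2BP1, and both differences shrank without shNT replicate 3. Pdgfrb (ENSMUSG00000024620, plus strand, chromosome 18, 61045150 to 61085061) had 37.8, 68.7 and 126 CPM in shNT and 29.7, 38 and 59.2 CPM in shIGF2BP1, and shNT replicate 1 lay within the shIGF2BP1 range. Its log2 fold change was -0.87 ± 0.39 (SE; 95% interval -1.74 to -0.002; edgeR adjusted p = 0.695). Without shNT replicate 3 it was -0.33, and without shNT replicate 1 it was -1.20 (edgeR adjusted p = 0.248). Pdgfra had 22.1, 13 and 28.8 CPM in shNT and 13.8, 12.7 and 13.1 CPM in shIGF2BP1. The 3 shIGF2BP1 libraries had an SD of 0.589 CPM, and shNT replicate 2 lay at the same level. The Pdgfra log2 fold change was -0.69 ± 0.30 (SE; 95% interval -1.35 to -0.03; edgeR adjusted p = 0.687), and -0.41 without shNT replicate 3.

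Mural and fibroblast markers, which often accompany PDGF receptors, were mixed. Of 13 markers, Kcnj8 and Lum had 0 counts, Rgs5 had 1 to 5 counts a library and Abcc9 had 1 count in each of 2 libraries. Col1a1 and Col3a1, fibrillar collagens, had 319 ± 61.9 and 329 ± 153 CPM in shNT and 321 ± 149 and 385 ± 95.3 CPM in shIGF2BP1. Cspg4, a mural cell proteoglycan, had 358 CPM in shNT replicate 3 and 87.4 to 142 CPM in the other 5 libraries. The summed marker level was 759.9 to 1005 CPM in shNT and 688 to 1179.9 CPM in shIGF2BP1, so the groups overlapped, and its part in the PDGF receptor values was not tested. The 10 mesenchymal neuroblastoma markers summed to 6104 to 6594 CPM in shNT and 4169 to 4973 CPM in shIGF2BP1. These sums, led by Vim and Fn1, did not overlap. Taken singly, 1 of the 10 had groups that did not overlap, beside 11.6% of all tested genes. Means were lower for 9 of 10, where 6925 of 13445 tested genes had a lower mean. The count was 8 of 10 when scaled by library size only, with the replicate block, with limma-voom and without shNT replicate 1, 2 or 3. The median log2 fold change was -0.43 and ran from -0.65 without shNT replicate 1 to -0.30 without shNT replicate 3. edgeR and limma-voom called 0 of the 10 markers, and DESeq2 called 1, beside 0.654% of the genes that DESeq2 tested. There were 4 with an unadjusted edgeR p under 0.05, beside 7.16% of all tested genes, and their part in the Axl and PDGF receptor values was not tested.

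PDGF ligand mRNA was present for both receptors and nearly equal between the groups. Pdgfc, which binds Pdgfra, had 129 ± 24.8 CPM in shNT and 129 ± 3.11 CPM in shIGF2BP1 (SD, n = 3 each). Pdgfa, another Pdgfra ligand, had 40.7 ± 2.22 and 39.2 ± 2.56 CPM, and Pdgfb had 7.49 ± 1.73 and 8.3 ± 0.975 CPM. Pdgfd had 0 counts. Compared per length, Pdgfc (25.4 RPKM over the 6 libraries) and Pdgfa (12.8 RPKM) exceeded Pdgfra itself (1.72 RPKM), whereas Pdgfb (1.9 RPKM) lay under Pdgfrb (10.9 RPKM).

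Axl and Met did not differ beyond the spread between libraries. The Axl log2 fold change was -0.34 ± 0.30 (SE; 95% interval -0.99 to 0.32; edgeR adjusted p = 0.873), and the highest shIGF2BP1 library, replicate 3, lay above 2 of the 3 shNT libraries. With 1 library left out it ran from -0.60 (without shIGF2BP1 replicate 3) to -0.12 (without shNT replicate 3). Met had 47.1, 58.4 and 53.9 CPM in shNT and 56.9, 49.6 and 72 CPM in shIGF2BP1, a log2 fold change of 0.16 ± 0.21 (SE; 95% interval -0.30 to 0.63; edgeR adjusted p = 0.918). These intervals allow Axl a fall of up to 0.99 and Met a rise of up to 0.63 on the log2 scale. For the levels of each of the 5 receptors, a two-sided exact permutation test of mean log2(CPM + 1) gave p between 0.2 and 0.5, and the smallest p that this number of libraries allows is 0.1.

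The ligands of Met and of the TAM family were uneven. Gas6, the high-affinity ligand of Axl, had 0 counts in each library, which allows up to 0.0851 to 0.114 CPM. Pros1 encodes Protein S, a ligand of other TAM family receptors. It had 61.3, 40.2 and 28.7 CPM in shNT and 38.2, 41.8 and 32.6 CPM in shIGF2BP1 (log2 fold change -0.21, edgeR adjusted p = 0.918). Hgf, the Met ligand, was low at 2.63 ± 0.781 and 3.7 ± 1.15 CPM. Cd44, a co-receptor of Met, had 269 ± 85.9 and 202 ± 45.4 CPM, and Plxnb1, another partner of Met, had 4 to 19 counts a library.

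Ligands of the undetected receptors were partly present. Gdnf, which signals through Ret, had 11, 16 and 36.6 CPM in shNT and 12.5, 16.6 and 15.5 CPM in shIGF2BP1, and its co-receptor Gfra1 had 90.2 ± 33.9 and 95.3 ± 20.7 CPM, although Ret had 0 counts. The Gdnf log2 fold change of -0.51 ± 0.39 (SE; edgeR adjusted p = 0.845) became 0.13 without shNT replicate 3 and -0.83 without shNT replicate 1. Bdnf, the Ntrk2 ligand, had 28, 36.8 and 67.3 CPM in shNT and 22.1, 22 and 30.3 CPM in shIGF2BP1, a log2 fold change of -0.83 ± 0.32 (SE; edgeR adjusted p = 0.658) that became -0.39 without shNT replicate 3. Sort1, a sorting receptor of neurotrophins, had 149 ± 30.5 and 152 ± 17.4 CPM, and the neurotrophin receptor Ngfr had 1 count in each of 2 libraries. The Alk ligands Alkal1 and Alkal2, the Ntrk3 ligand Ntf3, and Nrtn had 0 counts. So a ligand was detected for Ret and Ntrk2 without the receptor, and for Alk and Ntrk3 neither was detected beyond the few Alk counts.

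**Figure D4:**
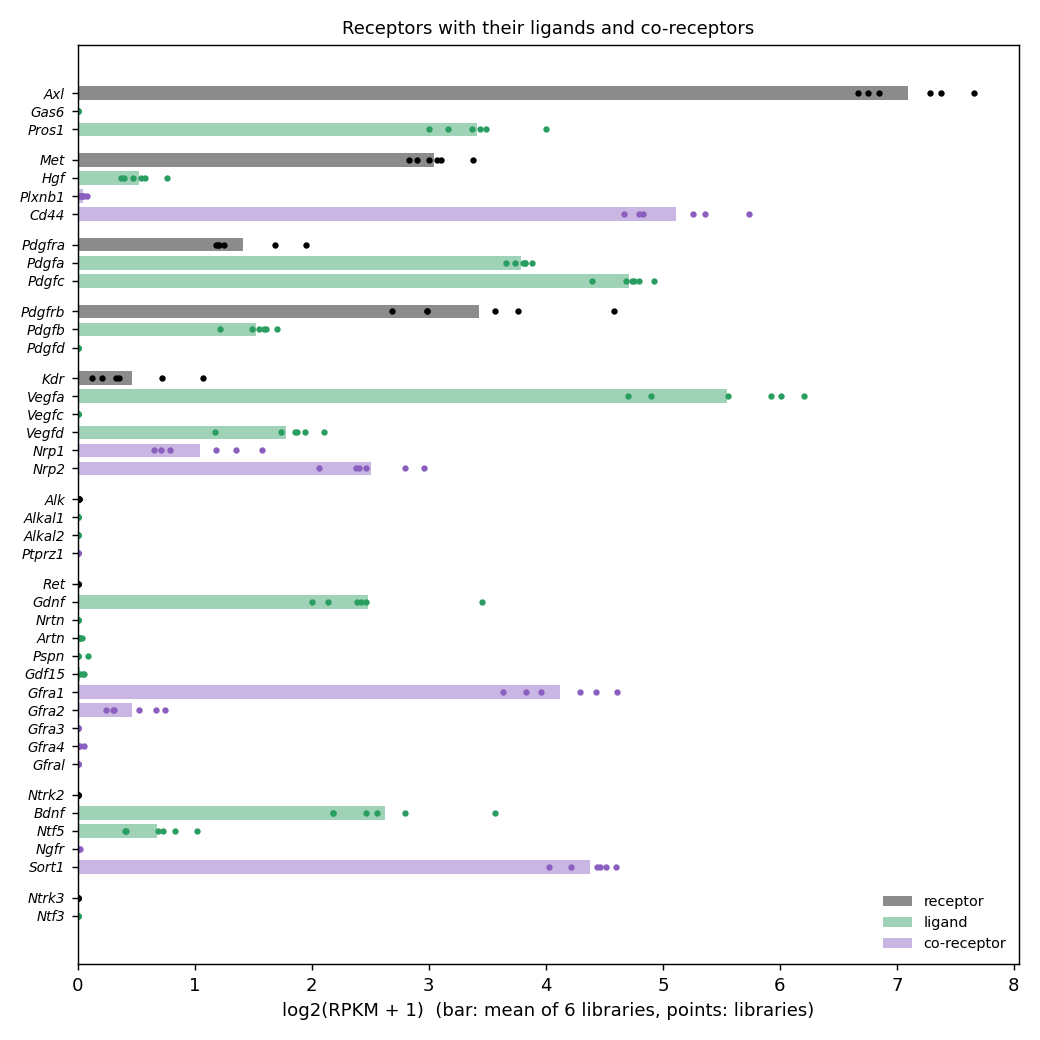
Levels per length, as log2(RPKM + 1), of each receptor in black with its ligands in green and its co-receptors in purple; bars are means of the 6 libraries and points are libraries. Gdnf, Gfra1, Bdnf and Sort1 have bars under Ret and Ntrk2, whose own bars are at 0, and Vegfa and Pdgfc exceed the receptors they bind. Pros1 and Vegfd are drawn in green under Axl and Kdr as ligands of related receptors.

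Of 20 ligands 10 could be tested, 5 with a higher and 5 with a lower mean in shIGF2BP1. The median log2 fold change was -0.03. The split was 6 and 4 when scaled by library size only, and ran from 3 and 7 to 6 and 4 with 1 library left out. edgeR, DESeq2 and limma-voom called 0 ligands, and 1 (Bdnf) had an unadjusted edgeR p under 0.05, beside 7.16% of all tested genes. Of 14 co-receptors 7 could be tested, 3 higher and 4 lower (4 and 3 when scaled by library size only). The split was 6 higher and 1 lower without shIGF2BP1 replicate 1, and 1 higher and 6 lower without shNT replicate 1. edgeR, DESeq2 and limma-voom called 0 co-receptors, and 1 had an unadjusted edgeR p under 0.05, beside 7.16% of all tested genes. Itgb3, an integrin subunit that partners PDGF and VEGF receptors, had 37.8, 41.6 and 16.4 CPM in shNT and 73.2, 55.2 and 51.6 CPM in shIGF2BP1. Of the 7 tested co-receptors, only Itgb3 had groups that did not overlap, beside 11.6% of all tested genes. Its log2 fold change was 0.91 ± 0.32 (SE, edgeR adjusted p = 0.62) and was 0.59 without shNT replicate 3.

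Close relatives of some of the receptors, named after their values were seen, ranged from well covered to a few counts. In the TAM family Tyro3 had 64.6, 60.2 and 63 CPM in shNT and 80.3, 74.6 and 79.7 CPM in shIGF2BP1 (log2 fold change 0.32, edgeR adjusted p = 0.772). The Tyro3 groups did not overlap, as for 11.6% of all tested genes. Mertk had 9.79 ± 3.53 and 13.5 ± 3.06 CPM. Ltk, the paralog of Alk, had 7 to 22 counts a library. Mst1r, the paralog of Met, had 44 counts in all, and Csf1r, a relative of the PDGF receptors, had 31, of which 19 were in shIGF2BP1 replicate 3.

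Among the other 45 receptor tyrosine kinases 20 could be tested, 10 with a higher and 10 with a lower mean in shIGF2BP1. The split was 12 and 8 when scaled by library size only, and the median log2 fold change was 0.02. edgeR, DESeq2 and limma-voom called 0, and 2 had an unadjusted edgeR p under 0.05, beside 7.16% of all tested genes. The groups did not overlap for 2 with a higher and 2 with a lower mean, beside 11.6% of all tested genes. Egfr, the epidermal growth factor receptor, had 28.3, 57.3 and 99.2 CPM in shNT and 25.1, 26.4 and 37.7 CPM in shIGF2BP1, and its log2 fold change of -1.05 ± 0.38 (SE; edgeR adjusted p = 0.632) was -0.53 without shNT replicate 3, the library that also held the highest Pdgfrb and Axl. Fgfr1, a fibroblast growth factor receptor, had 102, 94.2 and 105 CPM in shNT and 64.4, 84.6 and 63.4 CPM in shIGF2BP1 (difference of -0.51 ± 0.19 SE on the log2 scale, edgeR adjusted p = 0.663), and the groups did not overlap. Epha1 and Fgfr3 were low. Epha1 had 0.708, 1.76 and 3.24 CPM in shNT and 3.13, 2.52 and 7.37 CPM in shIGF2BP1. Its log2 fold change of 1.18 (edgeR adjusted p = 0.745) ran from 0.56 without shIGF2BP1 replicate 3 to 1.80 without shNT replicate 3. Fgfr3 had 1.42, 1.14 and 1.36 CPM in shNT and 2.52, 2.16 and 2.30 CPM in shIGF2BP1 (log2 fold change 0.83, edgeR adjusted p = 0.748), and its groups did not overlap. Ryk, Ddr2, Ptk7, Ddr1 and Tyro3 followed Axl in level per length, at 41.9, 36.1, 19, 15 and 11.4 RPKM over the 6 libraries. Of the 54 genes, 11 had 0 counts in all 6 libraries.

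The adaptors and proximal effectors that receptors share were well covered, 26 of 30 at 5 CPM or more. Of the 26 tested, 9 had a higher and 17 a lower mean in shIGF2BP1, with a median log2 fold change of -0.12. Without shNT replicate 3 the split turned to 15 higher and 11 lower and the median to 0.02, and without shNT replicate 1 the median was -0.26. edgeR called 0 (3 with an unadjusted p under 0.05, beside 7.16% of all tested genes). limma-voom called 0 and DESeq2 1, Plcg2, beside 0.654% of the genes that DESeq2 tested. Plcg2, a phospholipase C, had 13.9, 25.8 and 22.7 CPM in shNT and 39, 44.6 and 45.7 CPM in shIGF2BP1, a log2 fold change of 1.05 ± 0.26 (SE; edgeR adjusted p = 0.431; DESeq2 adjusted p = 0.0421). Pik3r1, a regulatory subunit of PI3 kinase, had 53.3, 69.7 and 88.7 CPM and 41.8, 46.3 and 49.7 CPM (difference of -0.62 ± 0.23 SE on the log2 scale, edgeR adjusted p = 0.632). Pik3r2, another regulatory subunit, was higher in level, at 158 ± 29.9 and 185 ± 2.04 CPM (log2 fold change 0.23). Of the 26 tested, only Plcg2 and Pik3r1 had groups that did not overlap, beside 11.6% of all tested genes. Irs1, an insulin receptor substrate, had 117 ± 49.9 and 66.5 ± 18.4 CPM (log2 fold change -0.82, -0.47 without shNT replicate 2). Irs2, another, had 23.9 ± 4.95 and 27.2 ± 2.68 CPM (log2 fold change 0.18), and Shc4 had 7.03 ± 2.17 and 4.3 ± 1.45 CPM.

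Inhibitors of receptor signalling had mostly lower means in shIGF2BP1, 17 of 20 tested, where 6925 of 13445 tested genes had a lower mean. The median log2 fold change was -0.27. edgeR, DESeq2 and limma-voom called 0 inhibitors, and 1 had an unadjusted edgeR p under 0.05, beside 7.16% of all tested genes. Without shNT replicate 3 the count with a lower mean was 13 of 20 and the median -0.11. That count was 19 of 20 without shNT replicate 1 and 15 of 20 when scaled by library size only. Errfi1, a feedback inhibitor of ErbB receptors, had 40, 36.8 and 152 CPM in shNT and 23.6, 30 and 35.7 CPM in shIGF2BP1, so that 1 library set its log2 fold change of -1.36 ± 0.48 (SE; edgeR adjusted p = 0.62), which was -0.37 without it. The groups did not overlap for 3 of the 20 tested inhibitors, Errfi1 among them, beside 11.6% of all tested genes. Dusp4, an ERK phosphatase, had a log2 fold change of -0.60 that was -0.29 without shNT replicate 3, and Spry2, an inhibitor of Ras signalling, had -0.60 that was -0.19. The phosphatase Ptpn12 had -0.60 that was -0.25. The same library held the highest Axl, Pdgfrb and Pdgfra of the shNT group, and its part in those values was tested only by leaving it out.

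Sheddases, the proteases that cut Axl, Met and other receptors from the cell surface, were abundant, with Adam10 at 173 ± 17.3 and 168 ± 19.8 CPM and Adam9 at 132 ± 16.1 and 105 ± 25.1 CPM. Timp2, a metalloprotease inhibitor listed with the sheddases, had 473 ± 113 and 517 ± 37.1 CPM. Timp1, another inhibitor, had 76.6 ± 25 and 52.2 ± 19 CPM (log2 fold change -0.55, -0.26 without shNT replicate 3, -0.90 without shIGF2BP1 replicate 3, edgeR adjusted p = 0.76). Of 7 genes 6 were tested, 1 higher and 5 lower (4 and 2 when scaled by library size only, and 2 or 3 higher whichever library was left out), and edgeR called 0 (0 with an unadjusted p under 0.05; DESeq2 and limma-voom called 0).

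Glial and leukocyte markers were low. Of 6 Schwann and glial markers Sox10, S100b and Foxd3 had 0 counts, and the receptor Erbb3, which is on that list, had 9.82 ± 0.337 CPM in shNT and 6.89 ± 1.67 CPM in shIGF2BP1 (-0.51 on the log2 scale). Of the 2 on the list that could be tested, 1 had a higher and 1 a lower mean in shIGF2BP1, and edgeR called 0 (0 with an unadjusted p under 0.05; DESeq2 and limma-voom called 0). Of 9 macrophage and leukocyte markers Adgre1 and Tyrobp had 0 counts and Ptprc had 1. Cd68, which many cell types express, had 11.9 ± 3.6 and 4.12 ± 1.28 CPM, -1.52 on the log2 scale (edgeR adjusted p = 0.403). The other 2 tested had higher means in shIGF2BP1, Cd14 at 2.38 ± 0.951 and 3.52 ± 0.592 CPM and Fcer1g at 0, 6 and 1 counts in shNT and 10, 20 and 10 counts in shIGF2BP1. Fcer1g passed the count filter only through the shIGF2BP1 libraries, so its higher direction was set by the filter. The median of the 3 was 0.56 and includes it. With the filter at mean CPM 5 only 1 gene of the list was left, at -1.49. edgeR called 0 of the 3 tested (1 higher and 1 lower with an unadjusted p under 0.05, beside 7.16% of all tested genes) and limma-voom 0. DESeq2 and edgeR without a filter called 1 each, where each called 0.654% of its genes. The list summed to 11.3 to 16.7 CPM in shNT and 8.05 to 9.19 CPM in shIGF2BP1, so those groups did not overlap. Cd68 carried most of the shNT sum, so the lower sum in shIGF2BP1 does not describe the list as a whole. The part of these markers in the receptor values was not tested.

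The genes whose profile over the 6 libraries lay closest to each receptor were sought among tested genes at a mean of 5 CPM or more, by the root mean square distance between log2 CPM values centred on each gene's mean. Closest to Axl, whose own root mean square spread was 0.37, were Tenm4 (distance 0.04), Ldlrad3 (0.05) and Aars (0.07). Ptprn (0.10), Cacna1c (0.12) and Farp1 (0.13) lay closest to Pdgfrb, whose spread was 0.69. Trmt61b, Alg2 and Tmem104 lay closest to Pdgfra at distances of 0.09 to 0.12, and Stk39, Hadha and Ppp5c closest to Met at 0.03 to 0.05. For Kdr, whose spread was 1.18, the nearest lay farther: Zfas1 (0.43), Txnip (0.55) and Fetub (0.56). The comparison covered 6 libraries and 10479 genes (10480 for Kdr), and these names are a description.

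**Figure D5:**
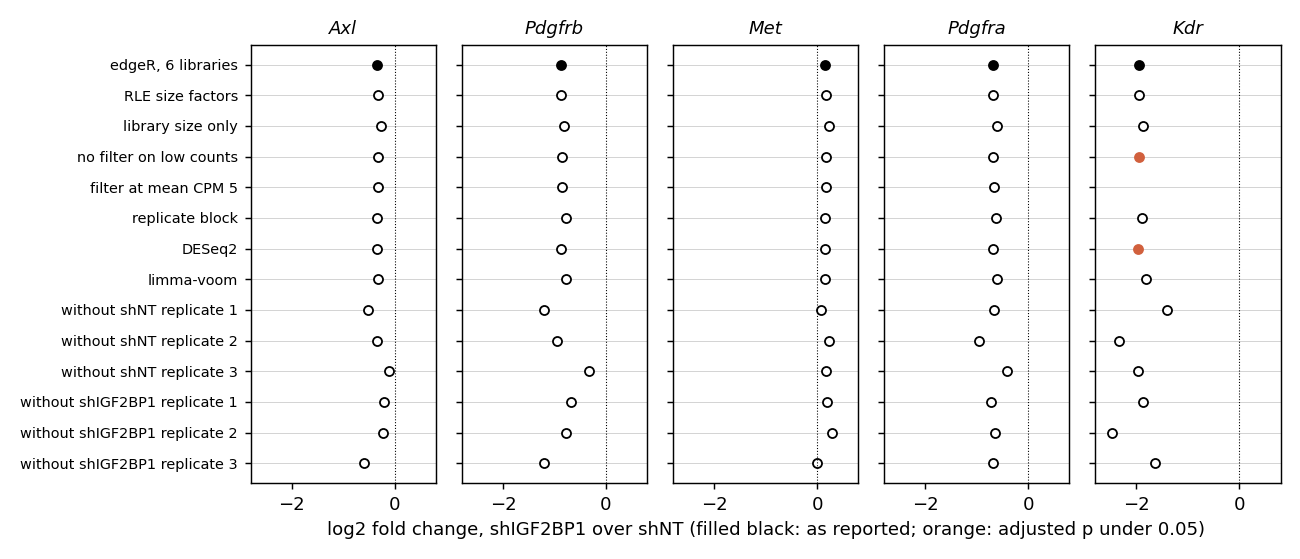
Log2 fold change of shIGF2BP1 over shNT for the 5 tested receptors under each processing alternative, with the reported value filled in black and values past an adjusted p of 0.05 in orange. Kdr is negative under all alternatives that keep it and orange under 2 of them, and Pdgfrb moves towards 0 without shNT replicate 3.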

How the data were processed

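Poly-A RNA was measured in 6 libraries, 3 per group. The authors deposited whole-number read counts per gene without normalisation, and the submitters' processing notes name HISAT2 2.1.0, HTSeq and the build GRCm38. The sources used here give neither annotation release nor strand setting. Each column took its sample from the name that the labels give the library. Of 43629 mouse gene IDs, 42548 matched a GENCODE M21 symbol, and the other 1081 held 0.111% of counts. The 92 spike-in rows held 0 counts.

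Counts were tested with edgeR 4.0.16 in R 4.3.3 (TMM, filterByExpr with min.count 10 and min.total.count 15, robust quasi-likelihood F test, two-sided, no covariates) over 13445 genes, with Benjamini-Hochberg adjustment over all of them and a threshold of 0.05. CPM and RPKM were computed here from the deposited counts, RPKM over merged GENCODE exons. SE is the log2 fold change over the root of F. The common biological coefficient of variation was 0.29. Intervals come from the edgeR fit and include the spread between libraries. Floors cover counting error only, and reads carried no molecular identifiers. No 2 libraries agreed within sampling noise. Alternatives were RLE factors, scaling by total counts, dropping the filter, keeping genes at mean CPM 5 or more, a replicate block, leaving out each library, DESeq2 1.42.0, limma-voom (limma 3.58.1) and an adjusted p threshold of 0.01. List counts without shNT replicate 3 were chosen after seeing the data.

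The receptors, gene lists and tests were chosen with earlier results of these data known. Named genes are Igf2bp1, the 9 receptors, the 5 highest and 4 smallest-p other receptor tyrosine kinases, for each receptor its most abundant ligand, up to 4 smallest-p and the most abundant members of each pathway list, the most abundant and undetected markers, and the 3 closest profiles. Other genes are said in the text to be chosen after their values were seen, or are given as further members of a fixed list.

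Some genes of these lists are not reported here by name, though counts over a list include them.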

Additional observations from a re-analysis of the deposited data

How the results depend on the processing

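The number of the 9 receptors called was 0 under all alternatives except 2: it was 1 without a filter on low counts and 1 with DESeq2. The gene was Kdr in both, at -1.95 on the log2 scale (edgeR adjusted p = 0.015) and -1.96 (DESeq2 adjusted p = 0.0283). The filter at mean CPM 5 removed Kdr and Igf2bp1. Without a filter edgeR called 138 genes of the whole table, DESeq2 called 100, the replicate block 18, limma-voom 1, the filter at mean CPM 5 1 gene, and leaving out libraries 1 to 5, against 3. No other receptor tyrosine kinase was called under any alternative run. When libraries were left out, log2 fold changes ran from -2.46 to -1.40 for Kdr, -1.20 to -0.33 for Pdgfrb, -0.95 to -0.41 for Pdgfra, -0.60 to -0.12 for Axl and -7.19e-05 to 0.29 for Met, whose lowest value came without shIGF2BP1 replicate 3. Igf2bp1 turned negative with the replicate block (-0.047) and limma-voom (-0.24) and spanned -1.24 to 0.76 over the fits that each left out a library, where Gdnf spanned -0.83 to 0.13, the latter without shNT replicate 3. Plcg2 was called without a filter (1.06) and with DESeq2 (1.05). With the replicate block Kdr was -1.90, Pdgfrb -0.77, Pdgfra -0.62, Axl -0.34 and Met 0.15, and 0 were called. Deviations from the group mean correlated at 0.19, -0.09 and 0.28 between libraries of equal number, so the numbers are not taken as pairs, and for some libraries the best match had another number. The causes of these differences were not tested. Depth limits what can be said of Alk, Ret, Ntrk2 and Ntrk3.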
